A study of Homo sapiens with 29 samples.

Results

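The early response of DHL6 cells to R406 was followed on 6 of the 29 arrays of the series: 3 arrays of cells given R406 for 2 h, against 3 arrays of cells given DMSO. The members were the arrays whose titles name DHL6 with R406 at 2 h or with DMSO, and all 12165 genes measured were examined. DHL6 cells are an established human line; the labels class them as diffuse large B-cell lymphoma, a tumour of mature B lymphocytes. R406 is a small-molecule inhibitor of SYK and was used at 1 µM; DMSO, its solvent, was the control. The labels give the DMSO arrays no time, so time in culture and time in drug cannot be told apart. All groups grew in RPMI medium with fetal calf serum and glutamine, and no genetic change was introduced. Also used here were 3 DHL6 arrays at 6 h of R406, and 5 arrays of a second lymphoma line, DHL4, 3 with R406 for 2 h and 2 with DMSO.

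SYK is a tyrosine kinase that binds the phosphorylated tails of CD79A and CD79B under the B-cell receptor and passes the signal to BLNK, PLCG2, PI3K, ERK and NF-kB. Many lymphomas of this kind rely on a low, constant form of that signal, which keeps growth and lipid synthesis running and holds back death-promoting members of the BCL2 family. Transcripts with a short life, such as those of feedback inhibitors and transcription factors, are the first whose levels can move when such a signal changes.

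Levels are log2 expression values per probe set as deposited, differences are R406 minus DMSO on that log2 scale with their standard error (SE), and genes with an adjusted p below 0.05 are termed called (limma, Benjamini-Hochberg over the 12165 genes). Rose and fell are used for called genes. Arrays of a group correlated at r between 0.991 and 0.992 with R406 and between 0.995 and 0.996 with DMSO, against 0.986 to 0.989 between the groups, across genes. The labels do not state whether each array had its own culture, and the spread behind the p-values may therefore be technical only. Values below 4 lie near the lower end of the array signal, where 7131 genes (58.6%) stood with DMSO; a change that starts or ends there is a lower bound. Levels of the B-cell markers were 11.2 with R406 and 11.7 with DMSO for MS4A1, 9.15 and 9.42 for CD79A, 9.29 and 8.87 for CD79B, and 9.19 and 8.50 for CD37. In the same order BLK stood at 6.35 and 5.57, VPREB3 at 6.40 and 7.10, and CD72 at 3.51 and 5.60. The probe sets of PAX5 and CR2 read below 4 in both groups. Of the 11 monocyte markers and the 11 fibroblast and endothelium markers all read below 4, and of 12 T-cell markers only LCK stood above 5.

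The signal of the 3-prime end of the ACTB array control minus that of its 5-prime end, a measure of RNA integrity, was 2.02, 1.79 and 1.60 with R406, against 1.53, 1.57 and 1.31 with DMSO, so the groups did not overlap. The same difference for GAPDH was 0.12, 0.12 and -0.07 with R406, against -0.03, 0.0009 and -0.02 with DMSO. A fit with the ACTB difference as a covariate, chosen after seeing the data, is given below wherever it moves a group's count by over 1.5 times; the part of RNA integrity in those changes was not tested further.

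At 2 h, 644 genes were called (5.29% of those measured): 260 rose (2.14%) and 384 fell (3.16%), 61 and 94 of them by 2-fold or more. The median difference over all genes was 0.02. The counts for gene lists below are to be read beside these shares, 2.14% higher and 3.16% lower. Among the 644, the R406 and DMSO arrays did not overlap for 642, where 11.8% of all genes had R406 arrays above and 11.8% had them below every DMSO array. With the ACTB covariate 335 genes were called, 170 higher and 165 lower, and 312 of them were among the 644. In 31 of the 260 risers the DMSO mean lay below 4, and in 74 of the 384 fallers the R406 mean did. In bulk RNA, fewer cells in a state and less RNA per cell cannot be told apart.

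BACH2, a transcriptional repressor that keeps B cells from becoming plasma cells, had the largest rise. It read 8.96, 8.91 and 8.63 on the R406 arrays, against 5.67, 4.91 and 5.22 on the DMSO arrays. The groups were far apart, and the difference of 3.56 ± 0.15 (SE, n = 3 each; adjusted p = 1.88e-14, limma) is an 11.8-fold rise. Its other probe set rose by 1.67. The serine/threonine kinase PIM1, which promotes survival and is a frequent target of hypermutation in lymphoma, stood at 8.09, 8.02 and 8.15 with R406, against 5.71, 5.84 and 5.66 with DMSO (2.35 ± 0.18, adjusted p = 2.52e-09). Its relative PIM2 rose out of the floor, with 5.49, 5.17 and 4.97, against 3.24, 3.32 and 3.38. Both kinases were separated from DMSO on every array.

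PYHIN1, an interferon-inducible nuclear protein, rose by 2.27 and reached 6.37, 6.29 and 6.21 with R406, against 3.90, 4.01 and 4.15 with DMSO. MME, the surface peptidase CD10 that marks germinal centre B cells, rose by 1.83 ± 0.11 (adjusted p = 1.04e-10), and its other probe set by 1.40. IL4R, a receptor chain for interleukin 4, rose by 1.56, with levels of 7.44, 7.29 and 7.13 with R406, against 5.72, 5.92 and 5.55 with DMSO. BMP7, a secreted factor of the TGF-beta superfamily, rose by 1.74, and TUT7, an enzyme that adds uridine to RNA tails, by the same amount. The remaining genes among the 15 largest rises were HRK, CTH, CHAC1 and NFKBIA, described below, and ASB13 (1.91), RASAL1 (1.76) and RNFT2 (1.55).

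LRRN3, a leucine-rich repeat membrane protein, had the largest fall. Levels were 4.34, 4.41 and 4.24 with R406, against 7.88, 7.64 and 7.53 with DMSO, a difference of -3.35 ± 0.23 (adjusted p = 4.28e-10), and the other probe set fell by 2.89. Every R406 array lay well below the lowest DMSO array. SLAMF1, a lymphocyte adhesion receptor, fell to 2.98, 3.08 and 2.99, against 5.94, 5.74 and 4.97 with DMSO. GPR18, a G-protein-coupled receptor of lymphocytes, fell by 2.03, and CD180, a Toll-like receptor relative that modulates B-cell activation, fell by 2.05. APOBEC3G, a cytidine deaminase that restricts retroviruses, read 4.79, 4.45 and 5.17 with R406, against 7.23, 7.13 and 7.14 with DMSO. KMO, which hydroxylates kynurenine in tryptophan breakdown, fell by 2.34 ± 0.40 and was the only called gene of the 8 measured in its pathway.

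Among transcription regulators, LMO2, a cofactor of germinal centre B cells, fell into the floor at 2.85, 2.71 and 3.13 with R406, against 5.40, 5.71 and 5.15 with DMSO (-2.52 ± 0.17, adjusted p = 5.07e-10). BHLHE40, a basic helix-loop-helix repressor, fell by 2.16, CBFA2T3, a corepressor, by 1.98, and ID3, an inhibitor of E proteins, by 1.98. PHACTR1, an actin and phosphatase regulator, fell by 2.29, and RHOBTB2 by 1.86. For CTSZ, a lysosomal protease, the DMSO arrays were scattered at 4.65, 5.26 and 6.48, against 3.31, 3.42 and 3.32 with R406; its fall of 2.12 was not called without DMSO replicate 3, without R406 replicate 1 or with the ACTB covariate. Second probe sets of APOBEC3G (-0.09), BHLHE40 (-0.10) and CTSZ (-0.02) read below 4 in both groups and showed no call. PTPN6 and CD72 complete the 15 largest falls.

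**Figure D1:**
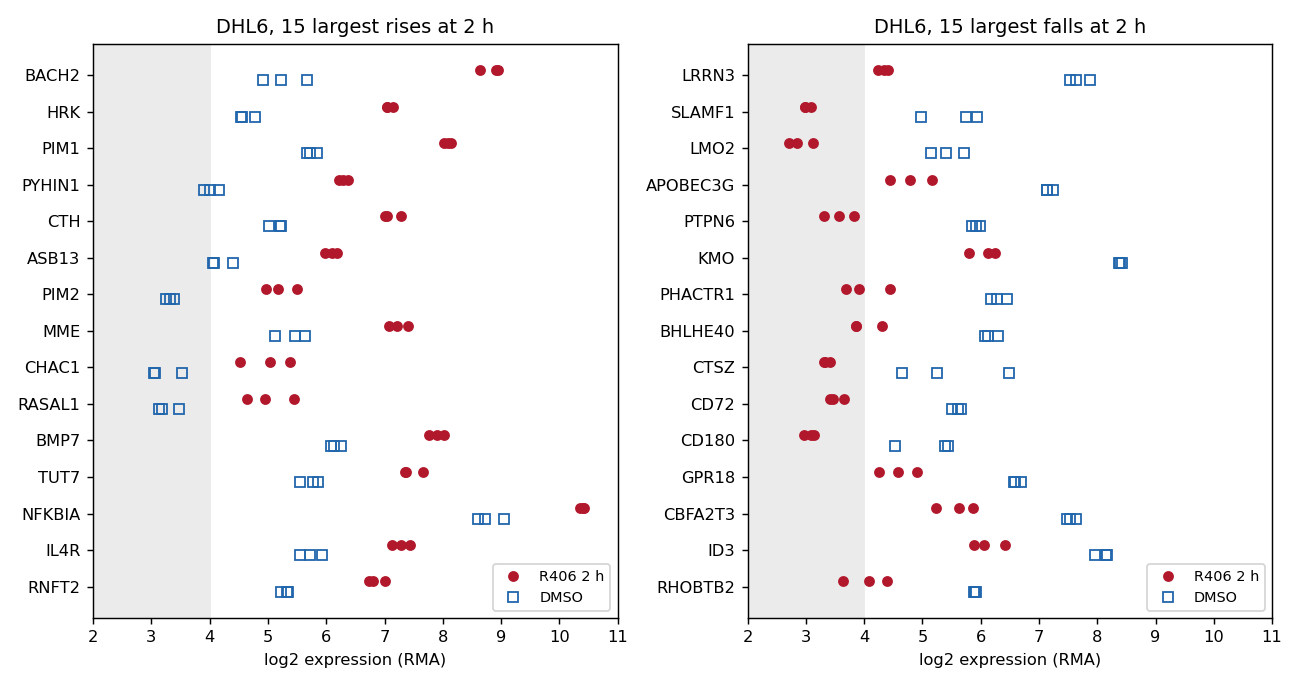
Log2 expression (x axis) on each of the 3 R406 arrays (filled red circles) and 3 DMSO arrays (open blue squares) of DHL6, for the 15 largest rises (left) and 15 largest falls (right) among called genes whose groups did not overlap. Grey marks values below 4; BACH2 stood between 8.63 and 8.96 with R406, against 4.91 to 5.67 with DMSO, and LMO2, PTPN6 and SLAMF1 ended in the grey band.

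In the receptor-proximal pathway, 2 of 19 measured genes rose and 3 fell (median difference -0.02, against 0.02 over all genes). SYK itself, whose kinase activity the drug blocks, read 5.28, 5.62 and 5.69 with R406, against 5.40, 5.23 and 4.84 with DMSO; the groups overlapped and the difference of 0.37 ± 0.17 was not called (adjusted p = 0.316). The SRC-family kinase BLK rose by 0.78 and CD79B, a signalling chain of the receptor, by 0.42. The adaptor BLNK fell by 0.46, the exchange factor VAV1 by 0.90 and TEC, a relative of BTK, by 0.93. TEC averaged below 4 in both groups, with 3.37, 4.13 and 3.37 with DMSO and 2.62 to 2.75 with R406. BTK (-0.35), PLCG2 (-0.05), LYN (0.25) and CD79A (-0.27) were not called. Without DMSO replicate 3 or R406 replicate 2, 1 gene rose. With the ACTB covariate 1 rose and 1 fell, and VAV1 and BLNK were no longer called.

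Among molecules that restrain the receptor, 4 of 17 measured inhibitory co-receptors and phosphatases fell and 0 rose (median -0.20), against 3.16% and 2.14% of all genes. PTPN6, the tyrosine phosphatase SHP-1, read 3.31, 3.83 and 3.56 with R406, against 5.84, 5.99 and 5.91 with DMSO (-2.35 ± 0.22, adjusted p = 7.73e-08). CD72, a co-receptor that recruits PTPN6, read 3.66, 3.41 and 3.47 with R406, against 5.51, 5.66 and 5.62 with DMSO (-2.08 ± 0.16, adjusted p = 3.49e-09). For both, all R406 arrays were below 4. CSK, which phosphorylates the inhibitory tail of SRC kinases, fell by 0.76, and the adaptor DOK3, below 4 in both groups, by 0.69. INPP5D, the lipid phosphatase SHIP-1, differed by -0.41 (adjusted p = 0.077) and was not called. LCK, a SRC-family kinase best known from T cells, fell by 1.45 ± 0.21 to 5.99 to 6.09 with R406, against 7.43 to 7.61 with DMSO, while CD3D, CD3E, CD3G and CD2 stayed below 4 in both groups.

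Of 18 genes of the PI3K and AKT branch, 5 rose and 1 fell (median 0.02). TCL1A, a coactivator of AKT, rose to 8.11, 8.15 and 7.94 with R406, against 7.22, 7.31 and 6.89 with DMSO (0.92). PIK3CD, the leukocyte PI3K catalytic subunit, rose by 0.76. So did brakes of the branch, the PI3K inhibitor PIK3IP1 (0.97) and TSC1, which holds back mTORC1 (0.87). DDIT4, another mTORC1 inhibitor, fell by 1.21 ± 0.16 and stood at 5.74, 5.77 and 5.65, against 7.06, 6.91 and 6.81. With the ACTB covariate 2 rose and 2 fell, and PIK3IP1 and TSC1 were no longer called. Of 21 growth arrest transcripts linked to FOXO factors, 0 rose and 3 fell, TXNIP (-1.04), KLF6 (-0.72) and the atypical cyclin CCNG2 (-0.63). Shown in any case, KLF2 (-0.04) and the cyclin CCND2 (0.01) lay below 4 in both groups. The covariate left 1 called fall, TXNIP. The other probe sets of KLF6, at 0.21 and 0.16, were not called.

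Immediate early genes gave 1 rise and 3 falls among 20, and ERK feedback genes 0 rises and 1 fall among 14. EGR1, induced by ERK within minutes of receptor engagement, read 5.66, 5.43 and 5.72 with R406, against 6.17, 6.05 and 5.76 with DMSO, and was not called (-0.39, adjusted p = 0.682). The RNA-decay factor ZFP36 fell by 1.05 and IER2, an immediate early nuclear protein, by 0.45. IER5, a regulator of heat shock factor activity, rose by 1.06 ± 0.18. DUSP5, a nuclear ERK phosphatase, fell by 0.83, ending at 3.11 to 3.48. DUSP6, SPRY2, FOS and JUN read below 4 in both groups, so a fall could not be seen in them. Without DMSO replicate 3, R406 replicate 1 or R406 replicate 2, 1 immediate early gene fell, and with the covariate 1 rose and 0 fell. Of the receptor-induced chemokines and activation markers, 4 of 20 rose and 5 fell. CCL4, TNF and LTA fell, each ending below 4, and LTA read below 4 with DMSO too. The actin regulator PLEK fell by 1.61, while CD40 (0.82), CD69, CD83 and ICAM1 rose. TNFRSF13B was the other faller. Without DMSO replicate 3 or with the covariate, 2 rose and 3 fell, and without R406 replicate 3, 2 rose; among the 7 genes above 5, 2 rose and 2 fell.

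Death-promoting BCL2 family members rose in 3 cases of 11 and fell in 0 (median 0.22). HRK, a BH3-only protein that binds BCL2 and BCL2L1, read 7.04, 7.04 and 7.15 with R406, against 4.53, 4.55 and 4.77 with DMSO (2.46 ± 0.23, adjusted p = 5.40e-08, 5.50-fold). The R406 arrays lay close together and far above DMSO. Both other HRK probe sets read below 4 and were not called (0.07 and 0.46). PMAIP1, the BH3-only protein NOXA that neutralises MCL1, read 9.17, 9.01 and 9.10, against 7.74, 7.74 and 7.61 (1.40 ± 0.12, adjusted p = 2.42e-08), and its second probe set rose by 1.41. BNIP3L, a mitophagy receptor, rose by 0.49 but the call was lost when single arrays were left out (5 of the 6) and with the covariate. BCL2L11 (BIM) read below 4 with an uncalled 0.44, and BBC3, BAX and BIK were not called. Of 5 survival-promoting members, BCL2A1 fell by 1.22, with 3.16 to 3.24 on R406 arrays, against 4.26 to 4.51 with DMSO, and MCL1 (0.22) and BCL2L1 (0.03) were not called; the BCL2 probe set read below 4.

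Of 21 measured NF-kB subunits and feedback targets, 8 rose and 2 fell (median 0.15), against 2.14% and 3.16% of all genes. NFKBIA, the inhibitor that NF-kB itself induces, read 10.43, 10.40 and 10.35 with R406, against 8.60, 8.72 and 9.05 with DMSO (1.60 ± 0.11, adjusted p = 4.28e-10). RELB rose by 1.19, NFKB2, the p100 precursor of the alternative pathway, by 1.09, BCL3, a nuclear cofactor, by 0.94, and TNFAIP3, the ubiquitin-editing inhibitor A20, by 0.77. PIM2, CD83 (0.71) and ICAM1 (0.69) also rose. REL fell by 0.80, with 7.16, 7.33 and 6.80, against 7.91, 7.91 and 7.86, and BCL2A1 fell; NFKB1 (0.15), RELA (-0.04) and IRF4 (0.47) were not called. Without R406 replicate 3, 1 fell, and with the covariate 5 rose and 1 fell.

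Promoter sequence is shown for 3 of these risers because it holds matches to the NF-kB motif, GGGNNTTNC on either strand. RefSeq (GRCh38.p14) gave the 250 bases before the transcript start; the capitals mark the matches, which overlap one another in places. NFKBIA is at chr14:35404750-35404999 (minus strand, 3 matches), NFKB2 at chr10:102394328-102394577 (plus strand, 4 matches, 1 of 3 listed starts), and TNFAIP3 at chr6:137867009-137867258 (plus strand, 3 matches).
NFKBIA: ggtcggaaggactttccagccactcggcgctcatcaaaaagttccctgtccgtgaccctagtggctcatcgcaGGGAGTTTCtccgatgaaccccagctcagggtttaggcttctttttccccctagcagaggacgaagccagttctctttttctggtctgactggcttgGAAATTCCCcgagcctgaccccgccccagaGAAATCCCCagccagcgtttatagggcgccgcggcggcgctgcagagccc
NFKB2: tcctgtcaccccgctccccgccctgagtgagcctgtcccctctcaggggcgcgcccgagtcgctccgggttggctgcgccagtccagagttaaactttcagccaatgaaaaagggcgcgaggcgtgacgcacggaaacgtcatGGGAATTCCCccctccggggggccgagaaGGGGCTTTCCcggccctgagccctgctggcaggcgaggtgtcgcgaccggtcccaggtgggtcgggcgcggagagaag
TNFAIP3: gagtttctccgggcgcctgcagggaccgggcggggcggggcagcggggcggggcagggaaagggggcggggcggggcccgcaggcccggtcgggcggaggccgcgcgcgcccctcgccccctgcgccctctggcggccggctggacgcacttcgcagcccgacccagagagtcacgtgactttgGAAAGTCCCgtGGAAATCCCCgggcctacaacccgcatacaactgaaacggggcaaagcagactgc
The motif was found in 14.2% of all 35116 promoters of that length. Of 19 genes of the list with a promoter, 10 had a match, and of the 7 risers among them 5 did (BCL3, CD83, NFKB2, NFKBIA and TNFAIP3). A gene counted here if any of its listed starts had a match, whereas the 14.2% is per promoter, so these shares are not like for like. Among the fallers REL had one, and among genes not called NFKB1, NFKBIB and TNFAIP2 did. Beside these sequences, NFKB2 read 5.25, 5.40 and 5.25 with R406, against 4.23, 4.47 and 3.93 with DMSO, and TNFAIP3 read 7.14, 6.93 and 7.27, against 6.40, 6.27 and 6.38. A match describes letters and not occupancy.

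ATF4 is the transcription factor of the amino acid response. In a list of ATF4 stress and amino acid synthesis genes, 8 of 22 rose and 1 fell (median 0.45, 17 of 22 above 0). CTH, which makes cysteine from cystathionine, read 7.01, 7.04 and 7.29 with R406, against 5.23, 5.02 and 5.21 with DMSO (1.96 ± 0.21, adjusted p = 3.93e-07), and its second probe set rose by 1.92. CHAC1, which degrades glutathione, read 5.04, 5.38 and 4.52, against 3.04, 3.07 and 3.52 (1.77 ± 0.22). The groups were separate for both genes. CEBPB, a basic leucine zipper partner of ATF4, rose by 1.36, mitochondrial PCK2 by 1.07, the serine synthesis enzyme PSAT1 by 0.78, ATF4 itself by 0.65, and the mitochondrial folate enzymes MTHFD2 by 0.57 and SHMT2 by 0.37. DDIT4 fell, as given above, and TRIB3 (-0.15), DDIT3 (0.38) and ASNS (0.30, adjusted p = 0.0579) were not called. The covariate left these counts at 8 and 1.

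The CHAC1 promoter, chr15:40953221-40953470 on the plus strand (GRCh38.p14, RefSeq), is shown because it held a match to TGATGNAA, the core of the ATF4 composite element, on either strand, in capitals.
CHAC1: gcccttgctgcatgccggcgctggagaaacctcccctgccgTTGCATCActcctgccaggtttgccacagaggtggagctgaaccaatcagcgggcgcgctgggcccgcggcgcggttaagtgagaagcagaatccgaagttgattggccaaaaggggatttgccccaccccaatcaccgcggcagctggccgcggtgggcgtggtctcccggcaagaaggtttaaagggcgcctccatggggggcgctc
That motif occurred in 3.14% of the 35116 promoters. Of the 19 ATF4-list genes with a promoter, 3 held it: CHAC1, which rose, and ASNS and CEBPG, which were not called. Here too a gene counted if any listed start had a match, whereas the 3.14% is per promoter.

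Amino acid handling outside that list was mixed. SLC38A2, a neutral amino acid transporter, rose by 0.90, whereas SLC7A6 (-1.08), SLC7A7 (-1.07) and SLC43A3 (-0.68) fell, 1 rise and 3 falls among 14. Of 26 translation factors and tRNA synthetases, 4 rose, among them CARS1 (0.60) and GARS1 (0.42), and 3 fell, EIF5A (-0.88), EIF2S1 (-0.72) and EIF3B (-0.42). EIF5A read 8.45, 8.59 and 8.68 with R406, against 9.10, 9.18 and 10.07 with DMSO, where 1 array stood apart. Other probe sets of EIF5A (-0.25 and -0.05) and EIF2S1 (0.20 and 0.05) were not called. Without DMSO replicate 1, without DMSO replicate 3 or with the 6 arrays alone, 2 translation genes rose. The covariate left 2 rises and 0 falls, and 1 rise and 1 fall among the transporters.

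MYC, which drives growth and ribosome production, read 10.27, 10.32 and 10.25 with R406, against 9.35, 9.33 and 9.28 with DMSO (0.96 ± 0.07, adjusted p = 3.27e-09). All R406 arrays lay above all DMSO arrays, and MYC was the only called gene of the 12 in its network list. Ribosome synthesis genes, many of them bound by MYC, fell in 7 of 40 cases and rose in 0 (median -0.38, 37 of 40 below 0). DDX10, a helicase of small-subunit assembly, fell by 0.95, DKC1, the pseudouridine synthase, by 0.69, RRP12 by 0.68 and TSR1 by 0.66. Another TSR1 probe set stood at an uncalled 0.23. DKC1 read 8.58, 8.56 and 8.69, against 9.32, 9.33 and 9.23. The 31 cytosolic ribosomal proteins gave 0 calls by limma and 0 at an unadjusted p below 0.05, with a median of 0.03, and ODC1, which starts polyamine synthesis, fell by 0.59. Without DMSO replicate 1, 4 ribosome synthesis genes fell, and in a fit of the 6 arrays alone 14 did. With the covariate 2 fell, and DDX10, TSR1 and ODC1 were no longer called; the list median was then -0.25.

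Of 18 heat shock chaperones 9 fell and 0 rose (median -0.37), led by HSPH1 (-1.01 ± 0.12), FKBP4 (-0.83), HSPA8 (-0.82) and DNAJA1 (-0.81). HSPA8, the constitutive HSP70, read 10.92, 10.95 and 10.93 with R406, against 11.87, 11.70 and 11.70 with DMSO, and its other probe sets fell by 1.02 and 1.29. The inducible HSPA1A and HSPA1B read below 4 and were not called. Of 20 endoplasmic reticulum chaperones 6 fell and 1 rose. HSPA5, the master chaperone BiP, read 9.09, 9.08 and 9.08, against 9.99, 10.06 and 9.99 (-0.93 ± 0.09, adjusted p = 1.24e-07), SDF2L1 fell by 0.85 and PDIA6 by 0.74, whereas EDEM1, which sends misfolded glycoproteins to degradation, rose by 0.85. In the cytosolic CCT ring 3 of 8 subunits fell (CCT2, TCP1 and CCT5) and all 8 lay below 0. Without R406 replicate 1, 5 heat shock genes fell, and with a variance trend or only genes above 5, 6 CCT subunits did. With the covariate 4 heat shock genes, 3 endoplasmic reticulum genes and 1 CCT subunit fell. The list medians were then -0.31, -0.17 and -0.28, against -0.37, -0.22 and -0.31 in the main fit.

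In sterol synthesis 10 of 18 measured genes fell and 0 rose (median -0.55, 17 of 18 below 0), against 3.16% of all genes. HMGCS1, which makes the precursor of mevalonate, read 7.90, 7.94 and 7.98 with R406, against 9.28, 9.18 and 8.97 with DMSO (-1.20 ± 0.14, adjusted p = 2.01e-06). SQLE, the squalene epoxidase, read 9.76, 9.74 and 9.47, against 10.43, 10.38 and 10.38 (-0.74 ± 0.11). Neither gene had an R406 array as high as a DMSO array. SC5D (-0.82), NSDHL (-0.81), DHCR7 (-0.77), ACAT2 (-0.72), MSMO1 (-0.70), CYP51A1 (-0.61), INSIG1 (-0.57) and LSS (-0.54) span the path and its feedback. Falls in fatty acid synthesis were fewer, 2 of 12 (median -0.30): FADS1, a desaturase, at -1.18, and FASN, the synthase, at -0.92, whose other probe set lay at the floor (0.07); without R406 replicate 3 only FADS1 was called. The covariate left 6 sterol genes and 1 fatty acid gene called lower, with INSIG1, DHCR7, SC5D and FADS1 among those lost. The list medians were then -0.52 and -0.15.

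**Figure D2:**
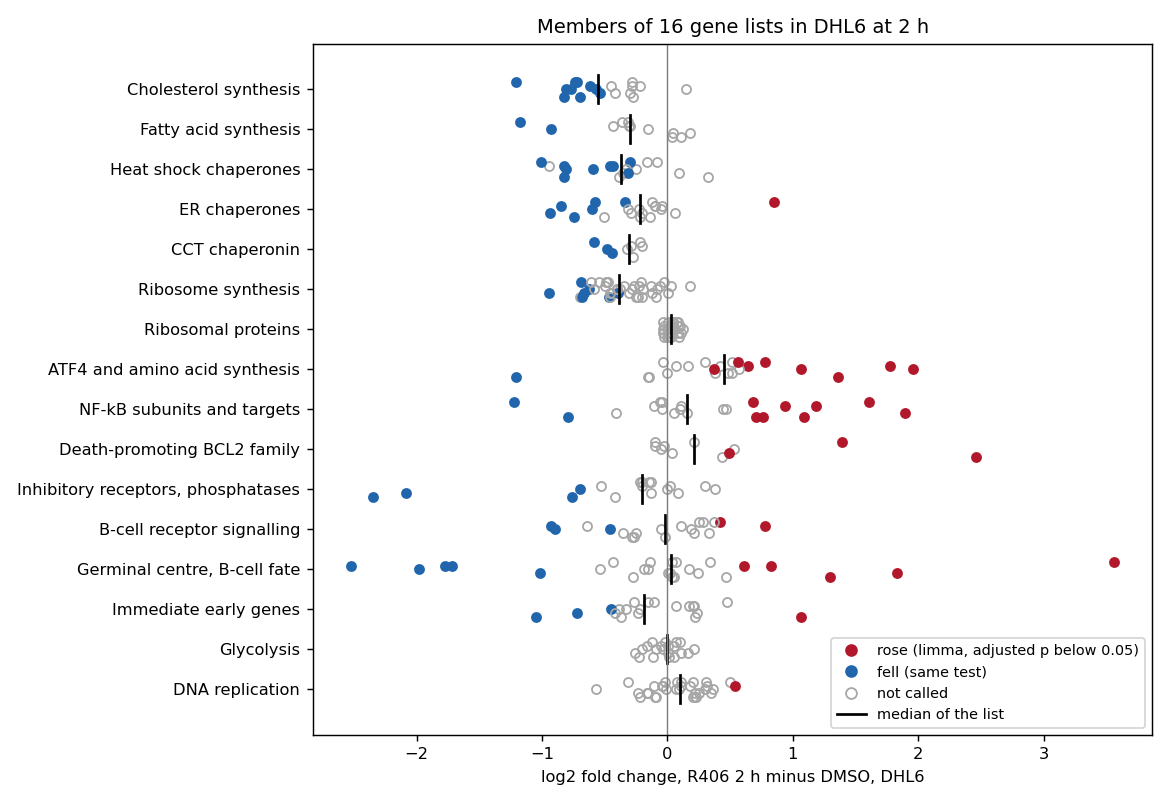
Log2 fold change, R406 2 h minus DMSO, in DHL6 (x axis) for each measured member of 16 gene lists (rows); filled red and blue points passed the limma test higher and lower, open grey points did not, and black bars are list medians. Sterol synthesis and heat shock chaperone members lie mostly left of 0 (medians -0.55 and -0.37). ATF4 and amino acid synthesis genes lie mostly right of it (0.45), and ribosomal proteins close to 0 (0.03).

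Factors that set B-cell identity moved both ways, 5 up and 5 down among 26 (median 0.03). Besides BACH2 and MME, MYBL1, a germinal centre MYB protein, rose by 1.30, ID2 by 0.83 and POU2AF1, the octamer coactivator, by 0.61. LMO2 and ID3 fell, and so did SPIB, an ETS factor (6.07, 6.06 and 6.11 with R406, against 7.93, 7.93 and 7.69 with DMSO, -1.77 ± 0.16), BCL11A (-1.72) and IKZF1 (-1.02). BCL6, the repressor that defines the germinal centre program, read 9.10, 9.07 and 9.30, against 9.34, 9.29 and 9.30, and was not called (-0.16, adjusted p = 0.705). PRDM1, the plasma cell regulator, read below 4 in both groups. ID2 just passed (adjusted p = 0.049) and its call was lost with each of the 6 arrays left out in turn. Without DMSO replicate 3, without R406 replicate 3 or with the covariate, 3 rose and 5 fell.

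At the cell surface, CXCR4, the receptor for CXCL12, read 10.70, 10.73 and 10.68 with R406, against 9.32, 9.25 and 9.18 with DMSO (1.46 ± 0.12, adjusted p = 5.23e-09), and its other probe sets rose by 1.71 and 1.59. The integrin chains ITGAL (-1.49) and ITGA4 (-1.33) and the adhesion molecule ICAM2 (-0.50) fell, so homing genes gave 1 rise and 3 falls among 18. In the TNF family, CD40 rose and 4 of 19 fell: TNFRSF17, the receptor BCMA (-1.68), CD70 (-0.95), LTA (-0.93, below 4 in both groups) and TNFRSF13B, the receptor TACI (-0.80). Without DMSO replicate 2, 2 of them fell, and without DMSO replicate 3, without R406 replicate 1 or with the covariate, 1 did. MS4A1, the antigen CD20, fell by 0.46 and the tetraspanin CD37 rose by 0.70. RGS19 fell by 0.94 and RGS16, also a brake of G-protein signalling, rose by 0.66 (adjusted p = 0.0429, limma). The RGS16 call was lost with each of the 6 arrays left out in turn. With the ACTB covariate, centring, a variance trend or a replicate block, 0 of the 14 RGS and G-protein genes rose. In a fit of the 6 arrays alone 2 rose and 3 fell.

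Among cytoskeletal and vesicle genes, RHOH, a small GTPase of blood cells (1.41), KANK2, an adaptor between actin and adhesions (1.48), and EZR, which links membrane and actin (0.75), rose, and 5 of 27 fell, with PHACTR1, PLEK (-1.61), CORO1C (-1.31), LIMA1 (-0.96) and MARCKSL1 (-0.36). RUBCNL, an autophagy regulator, rose to 9.71, 9.81 and 9.87 with R406, against 8.36, 8.45 and 8.35 with DMSO (1.41 ± 0.11), and MAP1LC3B, the autophagosome protein LC3B, by 0.84, while TFEB, which drives lysosomal genes, fell by 1.25 (2 rises and 1 fall among 18). In RNA decay TUT7 rose and ZFP36, TOB1 and ZFP36L1 fell among 16. With the covariate 3 actin genes rose and 3 fell, and 2 RNA decay genes rose and 0 fell. Without DMSO replicate 1 or 3, or R406 replicate 1 or 2, 1 RNA decay gene fell. The other probe sets of KANK2 (0.07) and RHOH (0.30 and 0.03) were not called.

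Other programs gave few calls at 2 h. Over all genes 5.29% were called, 2.14% higher and 3.16% lower. Counts of 0 or 1 in lists this small lie near that share and do not set these programs apart. By limma 0 were called in glycolysis (20 genes, 2 at an unadjusted p below 0.05), among G1 cyclins and inhibitors (15 genes, 1 unadjusted), in MHC class I (13 genes, 0 unadjusted), and among aryl hydrocarbon receptor and NRF2 targets (11 genes, 3 unadjusted), where CYP1A1 differed by 0.04. DNA replication gave 1 rise, GINS2 (0.54), among 32, mitosis 3 rises among 31 with CENPF (0.56), TOP2A (0.34) and NUSAP1 (0.33), oxidative phosphorylation 1 fall among 24, CYCS (-0.37), and interferon response 1 fall among 29, IRF9 (-0.71). MHC class II gave 1 rise, RFX5 (0.33), and 1 fall, HLA-DQB1 (-0.52), among 16. H2AC6 rose by 1.43 among 13 histone genes and XPC by 0.68 among 18 p53 targets. TGFBR2 (-0.88) and ID3 fell and ID2 rose among 19 genes of the TGF-beta and ID list, and TNF was the only call, lower, among 13 NFAT and calcium genes. The calls of CENPF, TOP2A, NUSAP1, CYCS, IRF9, RFX5, HLA-DQB1, XPC, ID2 and TNF were lost with the ACTB covariate. In mitosis 1 gene rose with centring, a replicate block or any 1 array but DMSO replicate 1 left out, and 5 rose with quantile normalization. Without DMSO replicate 1 or R406 replicate 1 the call of TGFBR2 was lost.

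The same exposure in DHL4 shares no array with DHL6. There 1153 genes were called (9.48%), 325 higher (2.67%) and 828 lower (6.81%), and 348 were called in both lines, 54.0% of the DHL6 calls and 30.2% of those of DHL4. Of the 348, 337 had the same sign; among all 644 DHL6 calls 572 (88.8%) did, called or not in DHL4. A test of whether the lines responded unequally (DHL6 response less that of DHL4) called 214 genes (1.76%), 149 higher (1.22%) and 65 lower (0.534%); with quantile normalization the split was 125 and 94. DHL4 had 2 DMSO arrays: without replicate 1 the test called 69 higher and 33 lower, and without replicate 2 it called 98 and 35. Of the 644 DHL6 calls, 81 had a called difference.

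MYC moved in opposite directions. In DHL4 it read 8.68, 8.75 and 8.60 with R406, against 9.98 and 10.00 with DMSO (-1.31 ± 0.08), and the difference between the lines was 2.27 ± 0.11 (adjusted p = 1.36e-12). The same held for 10 other genes called in both lines: RGS16, IER5, ID2, JADE2, MBP, SOBP, CD83 and RFX5 were higher with R406 in DHL6 and lower in DHL4, and CCNG2 and RGCC the reverse. RGS16 differed most (2.94), with 3.228, 3.491 and 3.101 in DHL4 with R406, against 5.65 and 5.45 with DMSO. It changed by 0.66 in DHL6 and by -2.28 in DHL4. The DHL6 calls of RGS16 and ID2 were lost with each DHL6 array left out in turn. That of RFX5 was lost with the ACTB covariate. Other probe sets of RGS16 (0.38, below 4 in both groups) and RFX5 (0.11) were not called in DHL6. CCNG2 fell by 0.63 in DHL6 and rose by 1.08 in DHL4.

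HRK rose by 2.46 in DHL6, against an uncalled 0.48 in DHL4, where its DMSO mean lay below 4, and the difference of 1.98 ± 0.34 was called (adjusted p = 0.00122). PMAIP1 rose in both lines, by 1.40 in DHL6 and 0.59 in DHL4, with a called difference of 0.80. For PIM1 the difference was 1.91, for PYHIN1 2.32 and for LRRN3 -3.25. All of them averaged below 4 in DHL4 in both groups, so no fall could be seen there for LRRN3. In the ATF4 list the difference was called higher for 5 of 22 genes, CTH, CHAC1, CEBPB, DDIT4 and TRIB3, the last 2 having larger negative values in DHL4, and 0 of its genes rose in DHL4. In the NF-kB list it was called higher for 5 of 21, NFKBIA, PIM2, NFKB2, CD83 and NFKBIE, and lower for BCL2A1. PIM2 and BCL2A1 averaged below 4 in DHL4 with and without R406.

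Some genes that rose in both lines rose further in DHL4. CXCR4 rose by 1.46 in DHL6 and 3.45 in DHL4 (difference -1.99, adjusted p = 2.02e-07), RUBCNL by 1.41 and 3.04, and KANK2 by 1.48 and 2.55. BACH2 rose further in DHL6, by 3.56, against 2.21 in DHL4 (difference 1.36). LMO2 (-2.52 in DHL6, -3.09 in DHL4), PTPN6 (-2.35 and -2.63) and CD72 (-2.08 and -2.39) fell in both lines, ending below 4 in both lines, with no called difference. Ribosome synthesis genes fell in 7 of 40 cases in DHL6 (2 to 14 under the alternatives above) and 28 in DHL4, and the difference was called for 2 of them, RRS1 and DDX21. Sterol genes fell in 10 of 18 cases in DHL6 and 12 in DHL4, with 2 called differences, MSMO1 and SQLE (-0.74 in DHL6, -1.61 in DHL4 for SQLE). BCL6 was called lower in DHL4 (-1.08), and its difference of 0.92 was called too (adjusted p = 0.00563).

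**Figure D3:**
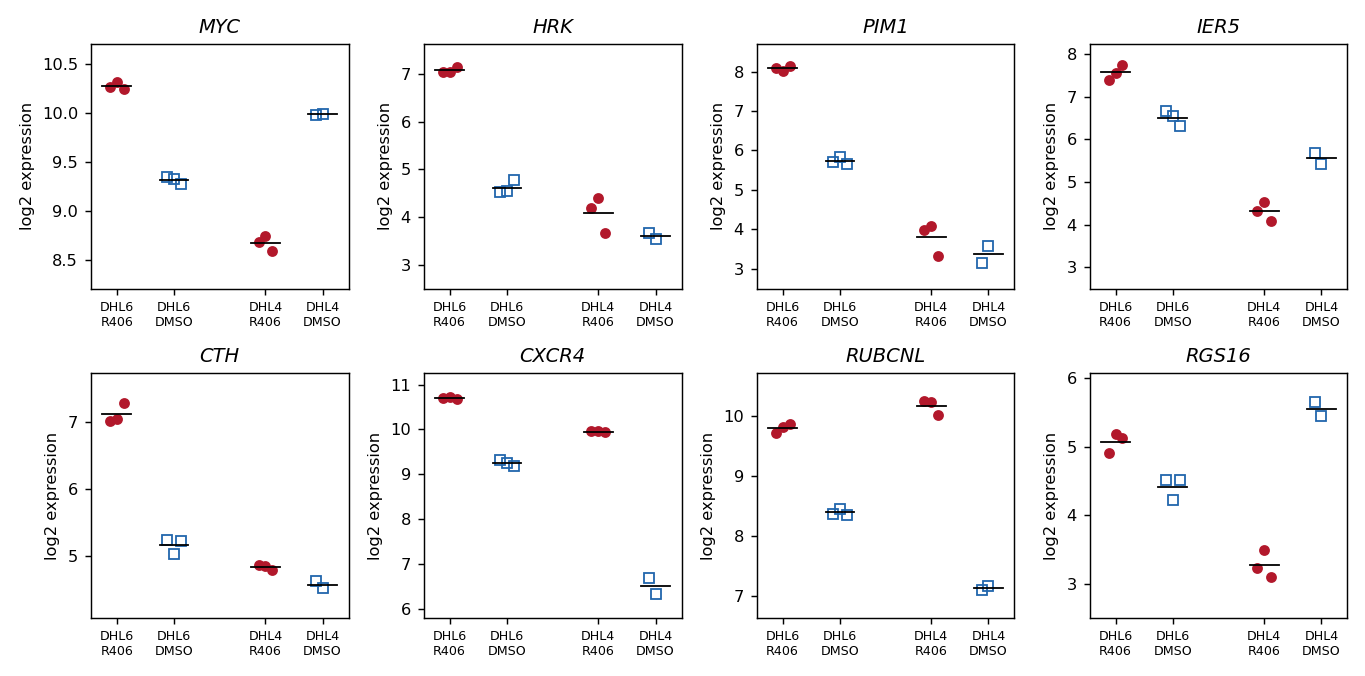
Log2 expression (y axis, scaled per gene) of 8 genes on each array at 2 h of R406 (filled red circles) and with DMSO (open blue squares), for DHL6 (3 arrays each) and DHL4 (3 and 2 arrays); black bars are means. MYC, IER5 and RGS16 lie above DMSO in DHL6 and below it in DHL4, and HRK rises by 2.46 in DHL6, against an uncalled 0.48 in DHL4.

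**Figure D4:**
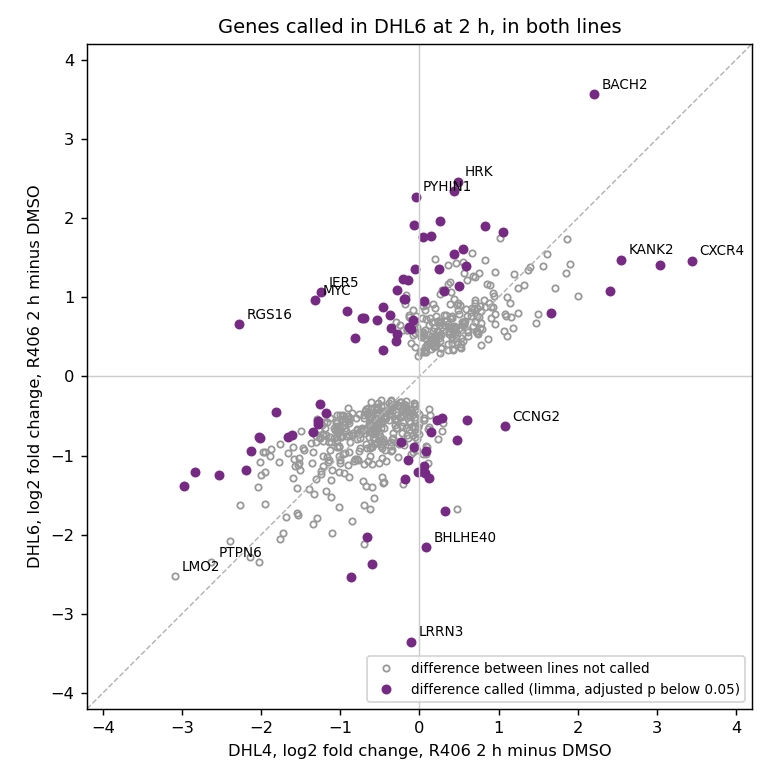
Log2 fold change at 2 h in DHL6 (y axis) and DHL4 (x axis) for the 644 genes called in DHL6; purple points are the 81 whose difference between lines was called, grey circles the rest, and the dashed line marks equal change. MYC, RGS16 and IER5 lie at the upper left, above 0 in DHL6 and below 0 in DHL4, and CXCR4 lies below the dashed line.

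Between 2 h and 6 h of R406 in DHL6, 542 genes were called (4.46%), 229 higher (1.88%) and 313 lower (2.57%) at 6 h. This comparison uses the same 2 h arrays as the one above, so the values are set side by side. A fit of these 6 arrays alone called 119, and leaving out 6 h replicate 3 gave 350 (145 lower). Part of the 2 h response was lower again at 6 h: BACH2 read 7.256, 7.434 and 6.998 at 6 h, against 8.96, 8.91 and 8.63 at 2 h (-1.60 ± 0.15, adjusted p = 1.60e-07), TUT7 fell by 1.49 and ASB13 by 1.43, both with 6 h replicate 3 lowest. SPIB, low at 2 h, rose by 1.30 to 7.30, 7.44 and 7.39 at 6 h. HSPA8 rose by 0.52, DKC1 by 0.56, and 7 of 40 ribosome synthesis genes rose with 0 falling.

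Other genes went on in the direction of 2 h. KMO fell by a further 1.67 to 4.65, 4.43 and 4.08, PHACTR1 by 1.25, ID3 by 0.90 and INSIG1 by 0.77, while TCL1A rose by 0.84 and PIK3CD by 0.74. HRK (-0.15), NFKBIA (-0.12), CTH (0.04), CXCR4 (-0.03) and MYC (0.15) showed no called change between 2 h and 6 h. Some genes without a call at 2 h changed later: SYK read 6.85, 6.85 and 6.39 at 6 h, against 5.28, 5.62 and 5.69 at 2 h (1.17 ± 0.17, adjusted p = 0.000151), EGR1 fell by 1.30, and 9 of 16 MHC class II genes fell. The 5 largest later rises were MARCKS (2.36), TESC (1.55), SLC29A1 (1.53), VOPP1 (1.47) and CD27, a TNF receptor of memory B cells (1.44). MARCKS was not called at 2 h, and 1 DMSO array stood apart for it at 8.32, against 5.32 and 5.45. The 5 largest later falls were VPREB3 (-2.16), the death effector BAX (-2.003), CUX2 (-1.93), PDGFD (-1.78) and KCNMB2 (-1.73), of which PDGFD (0.70) and KCNMB2 (1.48) had risen at 2 h.

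**Figure D5:**
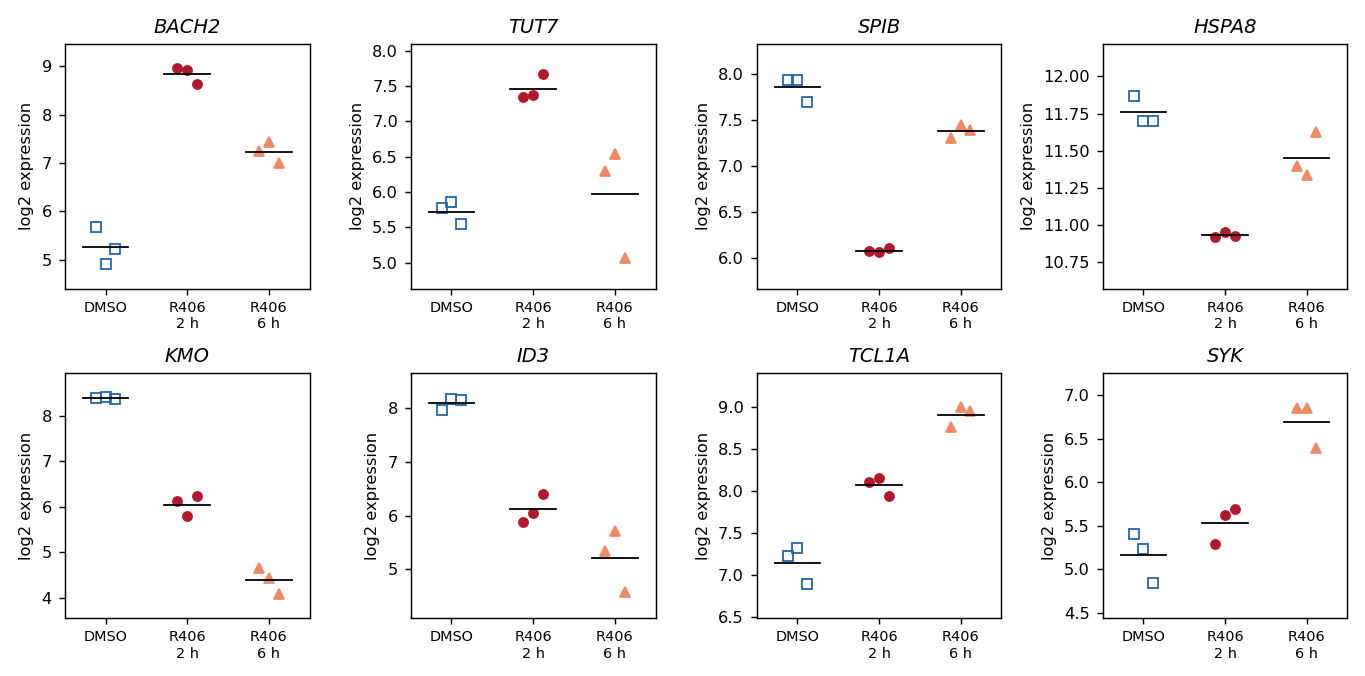
Log2 expression (y axis, scaled per gene) of 8 genes on the 3 arrays each of DMSO (open blue squares), R406 2 h (filled red circles) and R406 6 h (orange triangles) in DHL6; black bars are means. BACH2, TUT7, SPIB and HSPA8 move back toward the DMSO level by 6 h, KMO, ID3 and TCL1A move further from it, and SYK is higher at 6 h (6.39 to 6.85) than at 2 h (5.28 to 5.69).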

How the data were processed

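Per the submitters' processing notes, the deposited values are log2 expression per probe set computed with RMA, which corrects background, normalizes quantiles and fits a robust mean over probes; its version is not given in the sources, nor which arrays were normalized together. Labelling followed the Affymetrix protocol, per the labels. Of 22277 probe sets, 19724 had 1 gene symbol, and each of 12165 genes was represented by its brightest probe set on average. limma 3.58.1 (R 4.3.3) was used on all 29 arrays with a mean per group for 10 groups (19 residual and 5.05 prior degrees of freedom), with Benjamini-Hochberg adjustment per contrast. The fit was tested on simulated data. For 3 arrays against 3, a two-sided exact permutation test cannot go below p = 0.1. The same-numbered arrays of R406 and DMSO deviated from their group means with correlations of -0.04, -0.01 and -0.11, so the numbers were not taken as pairs. Genes are named by rule: the 15 largest called rises and falls with separate arrays, up to 4 called members of each of 47 lists (787 of 888 members measured), the 5 largest each way of the other contrasts, and 14 genes always shown, among them SYK, HRK and MYC. Members outside the rule are named to describe their list, with their values known. The members and lists were chosen with earlier results of these data known. Promoter sequences are from RefSeq (GRCh38.p14), and their motif matches were found on both strands. Alternatives covered the arrays fitted, normalization, centring, probe sets, a filter on dim genes, a variance trend, a replicate block, single arrays left out and, added after seeing the data, the ACTB covariate.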

Additional observations from a re-analysis of the deposited data

Results flagged for a closer look

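The difference of the 2 h responses, DHL6 minus DHL4, passed the interaction test (limma, Benjamini-Hochberg over 12165 genes) for these named genes; each value is that difference on the log2 scale, and the largest adjusted p among them was 0.0490 (GPR18). Genes that rose in DHL6 and fell in DHL4 were RGS16 (2.94), IER5 (2.30), MYC (2.27), ID2 (1.74) and RFX5 (0.80). Genes called higher with R406 in DHL6 with a higher difference were PYHIN1 (2.32), ASB13 (1.98), HRK (1.98), PIM1 (1.91), RASAL1 (1.71), CTH (1.70), CHAC1 (1.63), BACH2 (1.36), RNFT2 (1.12), CEBPB (1.11), PIM2 (1.06), NFKBIA (1.06), PMAIP1 (0.80), MME (0.77) and CARS1 (0.71).

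A further set had a positive difference with the more negative response in DHL4: USP2 (3.84), BCAR3 (2.64), CKAP4 (2.55), TRAF4 (2.51), DDIT4 (1.63), IER2 (1.36), TFEB (1.28), RGS19 (1.18), BCL6 (0.92) and SQLE (0.87). USP2, BCAR3 and CKAP4 read below 4 in DHL6 with and without R406, so no fall could be seen in that line.

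Negative differences, DHL6 below DHL4, were found for genes that rose in both lines, KANK2 (-1.07), RUBCNL (-1.63) and CXCR4 (-1.99), for genes that fell in DHL6, TNFRSF13B (-1.28), BCL2A1 (-1.29), GPR18 (-1.37), SLAMF1 (-1.67), CCNG2 (-1.71), APOBEC3G (-1.76), BHLHE40 (-2.25) and LRRN3 (-3.25), and for genes not called in DHL6 that rose in DHL4, CD27 (-1.002), TSC22D3 (-2.03), GADD45A (-2.03) and TMEM156 (-2.12). BCL2A1, BHLHE40, LRRN3 and SLAMF1 averaged below 4 in DHL4 with and without R406, as did PYHIN1, PIM1, PIM2, RASAL1 and CHAC1 above. HRK, TNFRSF13B and TMEM156 did with DMSO. The differences of APOBEC3G, ASB13, BCL2A1, CARS1, GPR18 and TNFRSF13B lost their call in 9 or more of the alternatives.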

How the results depend on the processing

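The 2 h response was called for 603 to 852 genes under the other fits, normalizations and filters planned, against 644 in the reported fit, and for 454 to 579 with 1 array left out. Only the ACTB covariate, chosen after seeing the data, moved it by over 1.5 times, to 335 (170 higher, 165 lower). A replicate block gave 603 for this comparison, 183 for the difference between lines and 507 for 6 h minus 2 h. The numbers were not taken as pairs, which was examined only for R406 2 h and DMSO in DHL6. Under the block 7 named 2 h calls were lost. Over all named 2 h genes and alternatives, 1582 values kept direction and side of the threshold and 182 lost the call, most often for ID2, RGS16, RFX5, CYCS, TOP2A, NUSAP1, ZFP36L1, BLNK, DHCR7, KLF6 and SC5D.

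Signs turned for 4 uncalled genes near 0 that read below 4. CCND2 was -0.013 with quantile normalization, -0.018 with centring and -0.19 with the ACTB covariate, and between -0.10 and 0.10 with 1 array left out. CYP1A1 was -0.017 with quantile normalization and between -0.15 and 0.15 with 1 array left out. DUSP6 was -0.071 with the covariate, and KLF2 lay between -0.15 and 0.077 with 1 array left out. The cause was not tested.

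The difference between lines ranged from 102 to 252 genes with 1 array left out (69 to 187 higher, 33 to 65 lower), lowest without DHL4 DMSO replicate 1, which leaves 1 DMSO array assumed to vary like the other groups; the covariate left 36 lower. For 6 h minus 2 h the 6 arrays alone gave 119 (50 higher, 69 lower), and quantile normalization gave 395 higher. A fit of 6 arrays alone has fewer residual degrees of freedom, and for the 2 h response it gave 852. Why these counts moved was not tested. With 1 array left out the counts ranged from 350 to 535 (139 to 205 higher, 145 to 343 lower); lacking 2 h replicate 1 or 2 gave 152 and 139 higher, lacking 2 h replicate 3 gave 355 (177 lower), and lacking 6 h replicate 3 gave 350 (145 lower). The number of arrays and signals below 4 limit what could be seen.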
